A study of Mus musculus with 16 samples.

Results

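ISG15 conjugation was followed through 6 genes, of 32285 measured: Isg15, its activating enzyme Uba7, its conjugating enzyme Ube2l6, the ligases Herc6 and Trim25, and Usp18, which removes ISG15 and restrains the interferon receptor. They were taken by symbol, and all 6 had at least 1 UMI (unique molecular identifier, a counted RNA molecule) in each of the 16 libraries. The libraries were single-nucleus RNA-seq of mouse hippocampus, from male C57BL/6 mice (WT, aged 2 months and 23 days) and male Ifnar1-/- mice (3 months and 3 days), which lack a chain of the type I interferon receptor in every cell. Mice received repeated intraperitoneal DMXAA, an agonist of mouse STING, or vehicle, with 4 libraries in each of the 4 groups. Genotype coincided with age and with the series of sample names, so their parts cannot be told apart. The labels do not say which libraries came from which mouse, and p-values therefore measure the spread between libraries.

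ISG15 is a small ubiquitin-like protein that interferon induces and that is joined to other proteins by an enzyme chain like that of ubiquitin. UBA7 activates it, UBE2L6 carries it, and a HERC ligase attaches it, which in mice is HERC6. TRIM25 is a RING ligase that acts with ubiquitin in RIG-I signaling and has also been described as an ISG15 ligase. USP18 cuts ISG15 from its targets and, apart from its protease activity, is brought to the receptor chain IFNAR2 with the help of STAT2 and dampens signaling there. All of these genes are known targets of type I interferon.

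The members lie on 5 chromosomes (GRCm38). Isg15 is at chr4:156199424-156200818 on the minus strand. The others are on the plus strand, with Usp18 at chr6:121245906-121270917, Uba7 at chr9:107975505-107984060, Ube2l6 at chr2:84798828-84810335, Herc6 at chr6:57581000-57664632 and Trim25 at chr11:88999376-89020293. Isg15 spans 1.40 kb, of which 0.756 kb is exonic in some transcript, and Herc6 spans 83.6 kb with 9.29 kb exonic. Reads in introns were counted as well as reads in exons, so levels are compared below within a gene and not between genes. Usp18 overlaps the antisense lincRNA Gm44148, Uba7 the protein-coding model Gm20661 and Herc6 the transcript Gm45193, of which only Gm44148 had a row of its own.

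The sequence upstream of the gene is shown for Isg15 and for 3 members that passed the test below, because interferon acts on these genes at their promoters. The letters searched were GAAANNGAAA, the core of the element that interferon-activated factors bind, on both strands of the 300 bases around each RefSeq start (250 before it and 50 after it, GRCm38.p6). Of 32851 promoters 3.44% held a match. 5 members had an entry. Isg15 held 3 overlapping matches, marked by capitals over 22 bases from −78 to −57 of its start. Uba7, Ube2l6, Herc6 and Trim25 held none in this window, which says only that these letters are not there. Each line gives 150 bases, 5′ to 3′ on the gene's strand, at chr4:156200819-156200968, chr9:107975355-107975504, chr6:57580842-57580991 and chr11:88999226-88999375 in turn.
Isg15: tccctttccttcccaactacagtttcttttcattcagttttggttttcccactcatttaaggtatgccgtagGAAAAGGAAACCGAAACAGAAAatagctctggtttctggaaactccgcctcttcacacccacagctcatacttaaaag
Uba7: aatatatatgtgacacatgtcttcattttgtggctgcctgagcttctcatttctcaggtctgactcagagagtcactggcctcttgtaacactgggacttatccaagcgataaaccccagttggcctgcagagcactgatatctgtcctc
Herc6: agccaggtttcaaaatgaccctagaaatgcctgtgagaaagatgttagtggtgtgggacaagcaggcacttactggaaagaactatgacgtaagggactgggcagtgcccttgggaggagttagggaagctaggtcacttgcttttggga
Trim25: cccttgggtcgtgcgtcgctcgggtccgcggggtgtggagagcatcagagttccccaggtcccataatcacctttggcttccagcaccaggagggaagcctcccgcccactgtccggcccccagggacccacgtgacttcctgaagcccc

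After filtering, 108878 nuclei of 155084 barcodes remained, 5163 to 9237 per library with 32922431 to 51885661 UMIs. Between any pair of libraries 12 to 41 barcodes were shared, at most 0.445% of the smaller library. Clusters were named from marker genes. They held 43983 excitatory neurons (ENs), 18253 oligodendrocytes, 14270 astrocytes, 5730 inhibitory neurons, 4760 microglia, 3342 oligodendrocyte precursors (OPCs) and 2230 fibroblast-like nuclei, and 14224 nuclei stayed unnamed. The ENs included 8020 named upper-layer cortical neurons, in several clusters. Only 1 of these clusters, of 2469 nuclei, had upper-layer markers (Rorb, Cux2) among its 10 top genes. Its marker score for this name was 4.04, and the others had 1.53 to 2.64, so their name is less certain. The tissue was thus not hippocampus alone. Ifnar1 itself was still counted in Ifnar1-/- nuclei, at 10.1 to 11.6 CPM (a gene's UMIs per 1e6 UMIs of the same nuclei) with vehicle against 16.8 to 18.5 CPM in WT. Where the disrupted part lies relative to the counted 3′ reads is not given in the sources used here, so this level does not check the genotype.

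WT DMXAA replicate 1 stood apart. It had the highest level among the 4 WT DMXAA libraries in 22 of 24 pairs of member and nucleus set, and replicate 3 had the lowest in 18. A list of 94 interferon-stimulated genes, 91 of them counted, showed the same order, with summed levels over all nuclei of 1369, 792, 501 and 808 CPM in WT DMXAA replicates 1 to 4. The summed levels in WT vehicle libraries were 323 to 365 CPM. Among the members the highest WT DMXAA library exceeded the lowest 17.5-fold for Isg15 and 8.85-fold for Usp18 over all nuclei, and 1.96-fold for Trim25. Results are therefore given per library. Where groups of libraries are said below not to overlap, the share of all genes so separated is not given, and the statement is a description.

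**Figure D1:**
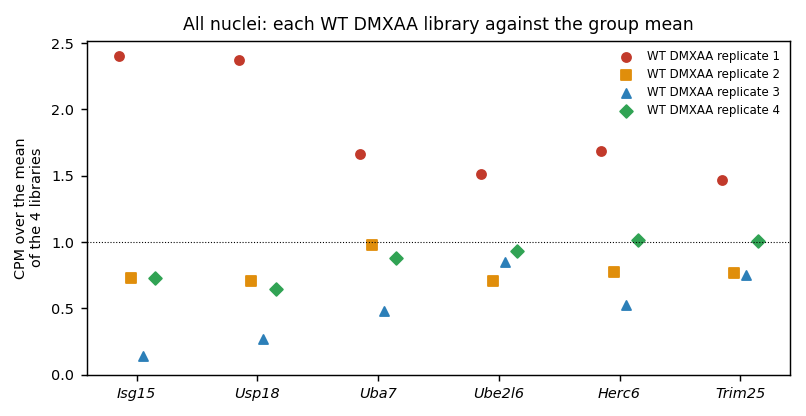
Level of each member over all nuclei in each WT DMXAA library, divided by the mean of the 4 libraries (y axis, ratio of CPM; dotted line, the mean). Replicate 1 is the highest for all 6 members, and replicate 3 is the lowest for all but Ube2l6.

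Usp18, the brake, showed the largest fitted change with DMXAA in WT microglia of the members tested there. It entered that test only through the WT DMXAA libraries, where it is high, so its adjusted p is a description. Isg15, not tested there, had a larger ratio of counts (33.9) than Usp18 (17.9). Usp18 was counted 1, 9, 4 and 2 times in the 4 WT vehicle libraries and 182, 55, 45 and 47 times in the WT DMXAA libraries. Its level was 6.36 ± 5.81 CPM (SD, n = 4) with vehicle and 114 ± 93.6 CPM with DMXAA. Every DMXAA library lay above every vehicle library. The log2 fold change was 4.16 ± 0.62 (SE), with adjusted p = 0.00193 by edgeR's quasi-likelihood test with Benjamini-Hochberg adjustment over all genes tested, which is the test behind every adjusted p of a fold change below. In text and figures, the SE of a fold change is its absolute log2 size divided by the square root of the test's F. It is not a separately fitted standard error and can be large where counts are few. Without WT DMXAA replicate 1 the log2 fold change was 3.45, and without WT vehicle replicate 2 it was 4.92.

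In WT microglia 3 of the 4 members tested rose, whereas 1.27% of all 8969 genes tested were called higher (adjusted p under 0.05 and a log2 fold change over 0.1). Herc6, the main mouse ligase, went from 89.2, 74.0, 80.4 and 84.0 CPM with vehicle to 501, 222, 149 and 245 CPM with DMXAA, a log2 fold change of 1.79 ± 0.29 (adjusted p = 0.00187). Trim25 went from 20.3, 16.1, 31.2 and 17.1 CPM to 90.2, 49.9, 50.5 and 48.5 CPM, with 1.54 ± 0.28 (adjusted p = 0.00465). The groups did not overlap for either ligase. Usp18 passed the filter on low counts (a minimum level in 4 libraries) only through the WT DMXAA libraries, where it is high, and both ligases did so without them. The place of Usp18 in the count is therefore a description. When the fit held only the 8 WT libraries, Usp18 and Herc6 were still called and Trim25 was not.

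Uba7, the activating enzyme, was already present in WT microglia at rest and did not pass the test. It had 31.3, 24.1, 31.2 and 22.8 CPM with vehicle and 79.1, 48.4, 18.8 and 45.8 CPM with DMXAA, a log2 fold change of 0.83 ± 0.33 (adjusted p = 0.345). DMXAA replicate 3 lay below all 4 vehicle libraries, and without it Uba7 was called (1.08, adjusted p = 0.00638). Without WT DMXAA replicate 1 the estimate was 0.51 (adjusted p = 0.604). Isg15 and Ube2l6 did not reach the filter on low counts in microglia. Isg15 had 1, 0, 1 and 0 UMIs with vehicle against 44, 19, 3 and 12 with DMXAA, a ratio of 33.9 per UMI counted (95% exact interval 9.09 to 285), and 19.6 (5.02 to 168) without WT DMXAA replicate 1. Without the filter on low counts Isg15 was called. Ube2l6 had 3, 3, 3 and 1 UMIs with vehicle and 10, 6, 5 and 5 with DMXAA, a ratio of 2.26 (1.06 to 5.26). Intervals on ratios cover counting error only, not the spread between libraries.

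**Figure D2:**
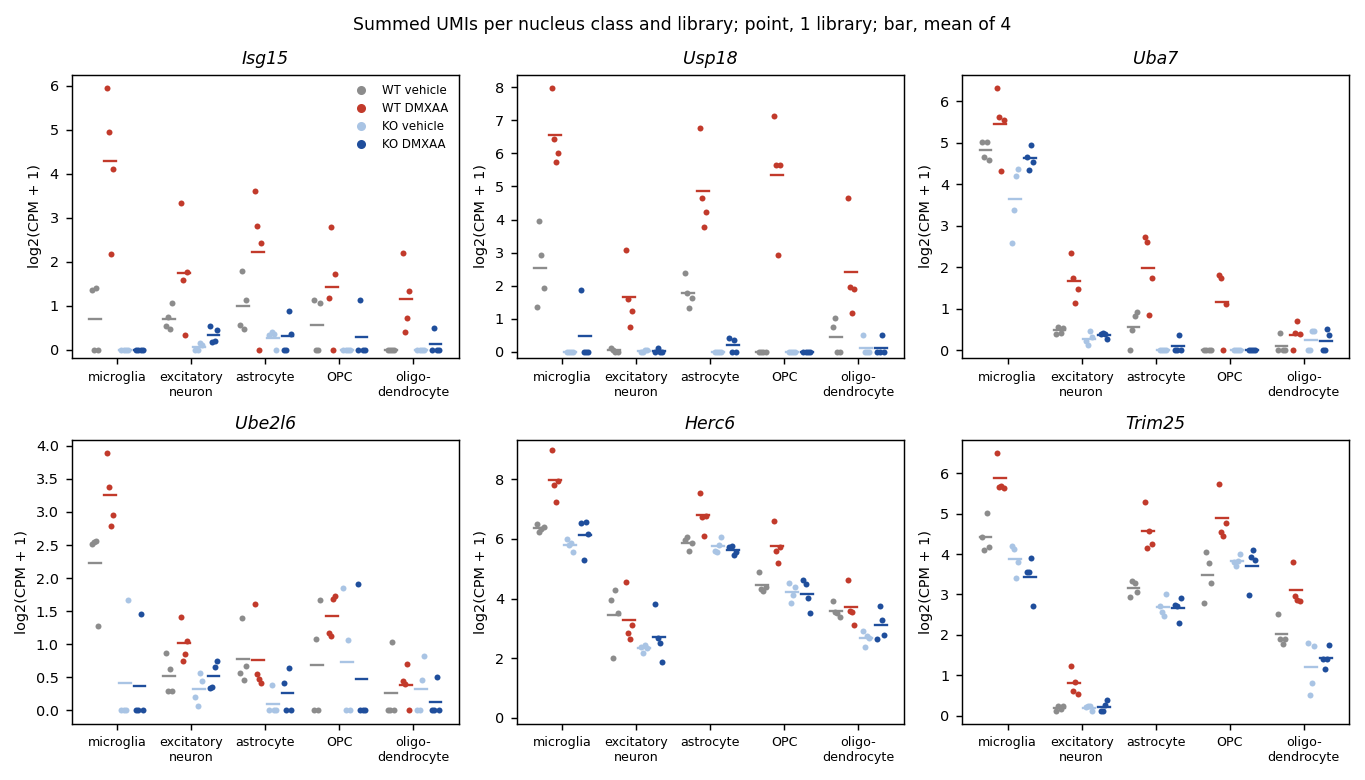
Level of each member, as log2(CPM + 1), in 5 nucleus classes and the 4 groups (KO, Ifnar1-/-; points, libraries; bars, means of 4 libraries). Usp18 is near 0 in vehicle OPCs and ENs and above 0 in every WT DMXAA library of the classes shown, and Herc6 and Trim25 are present in all groups.

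In WT ENs all 6 members were tested and 3 rose, where 0.124% of 17685 genes were called higher. All 3, Usp18, Uba7 and Trim25, passed the filter on low counts only through the WT DMXAA libraries, so the count is a description. Usp18 was counted 2, 1, 0 and 0 times with vehicle and 176, 50, 25 and 27 times with DMXAA. Its log2 fold change of 6.39 ± 0.88 (adjusted p = 0.00255) rests on 3 vehicle UMIs, and the ratio of counts was 92.7 (exact interval 31.4 to 452), or 44.0 (14.6 to 217) without WT DMXAA replicate 1. The size of the estimate varied with the fit. It was 5.35 without WT DMXAA replicate 1, 7.27 without WT vehicle replicate 1, 4.94 by limma-trend and 5.78 with no upper limit on genes per nucleus.

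Uba7 also rose in ENs, and its effect there and in microglia did not differ past the direct test given below (adjusted p = 0.129 by exact permutation). In ENs Uba7 had 0.299, 0.481, 0.333 and 0.453 CPM with vehicle and 4.06, 2.33, 1.19 and 1.77 CPM with DMXAA, and the groups did not overlap. The log2 fold change was 2.60 ± 0.34 (adjusted p = 0.00148). Its UMIs went from 11 with vehicle to 164 with DMXAA in dentate granule neurons and from 11 to 34 in CA1 neurons. They went from 4 to 7 in upper-layer, 8 to 7 in deep-layer, 3 to 2 in CA3 and 2 to 8 in subiculum neurons. Trim25 also rose, from 2, 5, 3 and 5 UMIs to 32, 13, 28 and 9 (2.49 ± 0.44, adjusted p = 0.0329), a call lost by limma-trend and without any of 8 single libraries, all 4 WT vehicle libraries among them.

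The other members did not pass the test in ENs. Isg15 had 12, 18, 9 and 29 UMIs with vehicle and 215, 50, 9 and 47 with DMXAA (log2 fold change 2.37 ± 0.69, adjusted p = 0.622). DMXAA replicate 3 had 0.25 CPM, below every vehicle library, and without it Isg15 was called at 2.76 (adjusted p = 0.0237). Without WT DMXAA replicate 1 the estimate was 1.22 (adjusted p = 0.72). The Ube2l6 estimate was 1.27 ± 0.47 (adjusted p = 1.0). Herc6 was at 14.5, 3.04, 18.5 and 10.3 CPM with vehicle and at 22.5, 6.14, 5.22 and 7.69 CPM with DMXAA (−0.11 ± 0.51), and the sign of this estimate depended on single libraries. Upper-layer cortical neurons, which held 998 of the 1188 Herc6 UMIs of WT vehicle ENs, made up 31.9, 9.26, 32.1 and 21.6% of ENs with vehicle and 23.8, 11.8, 15.1 and 17.4% with DMXAA. The part of this mix of neuron types in the EN value was not tested. When only the 8 WT libraries were fitted, 0 members were called in ENs.

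**Figure D3:**
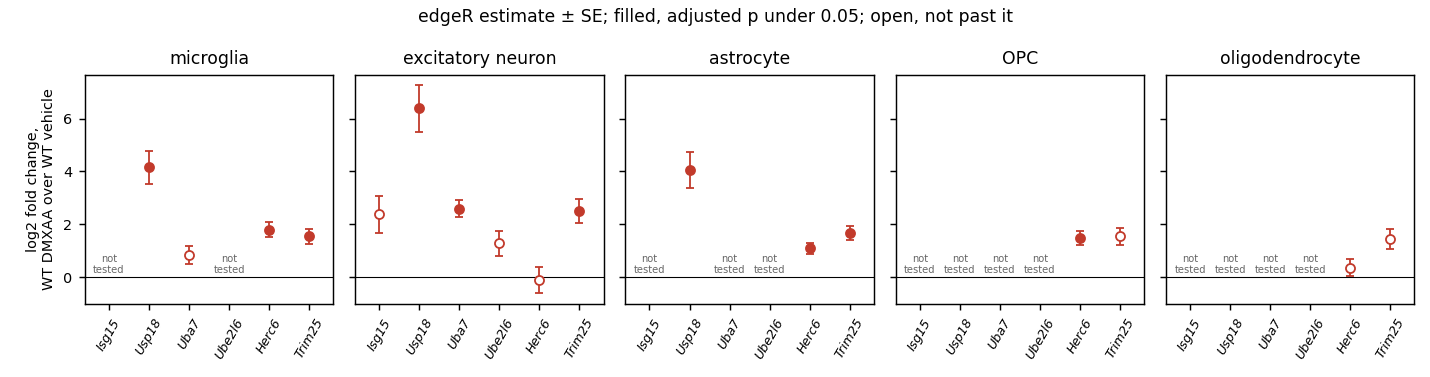
Fitted log2 fold change of each member with DMXAA in WT, in 5 nucleus classes (points, edgeR estimate; bars, SE; filled, adjusted p under 0.05; open, not past it). Estimates for Usp18 are the highest in each class where it was tested, and Herc6 in ENs lies at −0.11.

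Herc6 at rest differed widely between neuron types. Upper-layer cortical neurons had 342, 49, 392 and 215 Herc6 UMIs with vehicle and 330, 68, 115 and 90 with DMXAA, or 37 ± 12 and 32.6 ± 17 CPM. In dentate granule neurons, of which 18252 were kept, there were 4, 4, 3 and 5 UMIs with vehicle and 52, 22, 21 and 9 with DMXAA, or 0.455 ± 0.114 and 3.01 ± 2.68 CPM. Herc6 was thus high at rest in the nuclei named upper-layer, pooled from several clusters, and low in dentate granule neurons. The groups overlapped in the first and not in the second. The Herc6 level is not split by those clusters here. In dentate neurons, where Herc6 passed the filter on low counts only through the WT DMXAA libraries, the log2 fold change was 2.75 ± 0.51 (adjusted p = 0.0438). It was 2.04 without WT DMXAA replicate 1. This call was lost by limma-trend and without any single WT vehicle or Ifnar1-/- library. In upper-layer neurons 0 of 1 member tested was called by edgeR, DESeq2 or limma-trend (0 at an unadjusted p under 0.05), where 0.038% of genes were called higher.

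Dentate granule neurons had 2 of 4 tested members called higher, against 0.137% of 14624 genes. All 4 passed the filter only through the WT DMXAA libraries, so the count is a description. Besides Herc6 the member called was Uba7, with 2, 4, 2 and 3 UMIs with vehicle and 75, 41, 26 and 22 with DMXAA (3.94 ± 0.52, adjusted p = 0.00134). Uba7 was called in dentate neurons under every alternative run there. Usp18 was counted 0 times in the vehicle libraries and 83, 24, 15 and 17 times with DMXAA, at least 44.6-fold higher against a floor of 3 counts over the vehicle group, or at least 22.4-fold higher without WT DMXAA replicate 1. It was not past the test (adjusted p = 0.314). Isg15 had 7, 7, 2 and 10 UMIs with vehicle and 98, 26, 5 and 14 with DMXAA (2.58 ± 0.75, adjusted p = 0.674), and it was called without WT DMXAA replicate 3. Without WT DMXAA replicate 1 the Isg15 estimate was 1.18 (adjusted p = 0.713).

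**Figure D4:**
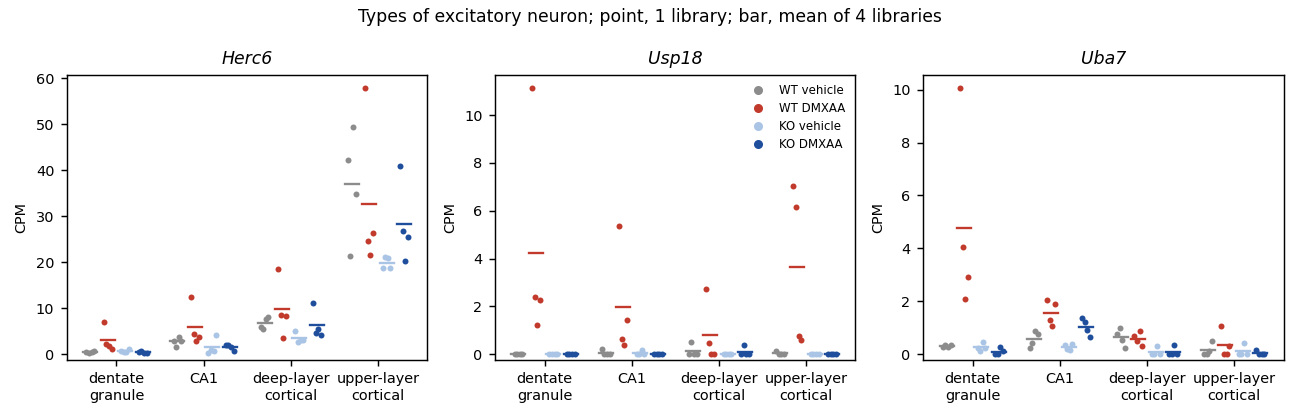
Level (CPM, linear axes) of Herc6, Usp18 and Uba7 in 4 types of excitatory neuron and the 4 groups (KO, Ifnar1-/-; points, libraries; bars, means of 4 libraries). Herc6 is highest in upper-layer cortical neurons in every group, and Uba7 in WT DMXAA libraries is highest in dentate granule neurons.

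In WT astrocytes the 3 members tested all rose, where 0.21% of 13357 genes were called higher. Usp18, which passed the filter only through the WT DMXAA libraries, had 4.27, 2.46, 1.52 and 2.07 CPM with vehicle and 108, 24.0, 12.6 and 17.8 CPM with DMXAA (4.06 ± 0.68, adjusted p = 0.0184). The place of Usp18 in the count and its adjusted p are therefore a description. The estimate was 2.94 without WT DMXAA replicate 1, and the call was lost without WT vehicle replicate 2, 3 or 4. Herc6 had 61.2, 65.9, 47.9 and 56.7 CPM with vehicle and 185, 106, 67.3 and 109 CPM with DMXAA (1.09 ± 0.21, adjusted p = 0.0353). The lowest DMXAA library, replicate 3, was just above the highest vehicle library, and the call was lost without any single WT vehicle library, WT DMXAA replicate 2, Ifnar1-/- DMXAA replicate 1 or Ifnar1-/- vehicle replicate 3. Trim25 went from 6.64, 9.0, 8.74 and 7.38 CPM to 38.3, 16.6, 22.8 and 18.2 CPM (1.67 ± 0.26, adjusted p = 0.00541) and was called without each library in turn. With only the 8 WT libraries 0 members were called.

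Isg15, Uba7 and Ube2l6 did not reach the filter in astrocytes. Isg15 had 1, 6, 1 and 4 UMIs with vehicle and 22, 13, 0 and 13 with DMXAA, and Uba7 had 0, 1, 2 and 3 against 11, 11, 2 and 7. Both had an overlapping library, WT DMXAA replicate 3.

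In OPCs Usp18 was seen in WT DMXAA libraries alone. It was counted 0 times in the vehicle libraries of WT OPCs and 112, 42, 6 and 43 times with DMXAA, at least 71.0-fold higher against the floor of 3 counts over the vehicle group, or at least 41.5-fold higher without WT DMXAA replicate 1. It did not reach the filter on low counts and had no adjusted p, and it was called when that filter was left out. Of the 2 members tested, Herc6 rose from 28.5, 19.0, 18.1 and 19.8 CPM to 95.2, 47.0, 35.4 and 51.9 CPM (1.48 ± 0.27, adjusted p = 0.0131), where 0.178% of 9574 genes were called higher. The Trim25 estimate was 1.54 ± 0.32 (adjusted p = 0.052), with 5.94, 15.6, 12.8 and 8.79 CPM against 52.6, 22.3, 21.0 and 26.5 CPM. Herc6 was not called without WT DMXAA replicate 1 or without WT vehicle replicate 2, 3 or 4.

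In oligodendrocytes 0 of 2 tested members were called by edgeR, DESeq2 or limma-trend, where Trim25 alone (1 member) was under 0.05 before adjustment. There 0.0248% of 12098 genes were called higher, and 681 were under 0.05 before adjustment. Usp18 had 2, 3, 0 and 0 UMIs with vehicle and 67, 9, 4 and 9 with DMXAA in this class, a ratio of 15.9 (6.56 to 50.1), or 5.08 (1.88 to 17.2) without WT DMXAA replicate 1. Trim25 had 4.69, 2.73, 2.44 and 2.71 CPM with vehicle and 12.9, 6.79, 6.33 and 6.1 CPM with DMXAA (1.44 ± 0.37, adjusted p = 0.391), groups that did not overlap, and it passed the filter only through the WT DMXAA libraries. The Herc6 estimate was 0.36 ± 0.32 (adjusted p = 0.905).

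Usp18 stayed low in inhibitory neurons and was present at rest in fibroblast-like nuclei. In inhibitory neurons it reached 0.474 ± 0.541 CPM with DMXAA, and 0 of 1 tested members, Herc6, was called by any of the 3 tools (0 at an unadjusted p under 0.05), as were 0.0% of 12984 genes. In fibroblast-like nuclei it was already at 30.2, 23.1, 40.0 and 37.0 CPM with vehicle, above every other class with at least 20 nuclei in each WT vehicle library, and at 123, 63.9, 18.6 and 41.3 CPM with DMXAA. There 0 of 3 tested members were called by edgeR, the only tool run on them (1 at an unadjusted p under 0.05), as were 0.0% of 8557 genes. Of these genes 418 were under 0.05 before adjustment. This class supplied 43.3% of the 104 Usp18 UMIs of WT vehicle libraries. With DMXAA, astrocytes held 24.1%, microglia 22.7%, ENs 19.2% and OPCs 14.0% of 1448. Without WT DMXAA replicate 1 the order of the first pair turned, with 22.8% of 602 in astrocytes and 24.4% in microglia.

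Over all nuclei together, 3 of 6 members rose with DMXAA in WT, where 0.435% of 20012 genes were called higher. They were Usp18 (3.86 ± 0.51, adjusted p = 0.000951, 3.01 without WT DMXAA replicate 1), Uba7 (1.68 ± 0.28, adjusted p = 0.0091) and Trim25 (1.52 ± 0.21, adjusted p = 0.00121). Isg15 had 18, 32, 17 and 38 UMIs with vehicle and 349, 108, 28 and 96 with DMXAA (2.54 ± 0.56, adjusted p = 0.0729). It was called by DESeq2, with doublets kept, with no upper limit on genes, and without WT DMXAA replicate 3, and the estimate was 1.63 (adjusted p = 0.259) without WT DMXAA replicate 1. Fitting only the 8 WT libraries left 0 members called. In sums over all nuclei, more cells of a type and more RNA per cell cannot be told apart.

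In Ifnar1-/- mice the same comparison called 0 members in all nuclei, microglia, ENs, astrocytes, OPCs, oligodendrocytes or dentate neurons, by edgeR, DESeq2 and limma-trend alike, and 0 at an unadjusted p under 0.05 by edgeR. Of all genes 0.0522% were called in OPCs and 0.0% in each of the other sets. Usp18 was counted 0 times in 929 vehicle microglia and 1 time in 1056 DMXAA microglia of Ifnar1-/- mice. Over all Ifnar1-/- nuclei it was counted 4, 2, 4 and 5 times with vehicle and 4, 4, 2 and 9 times with DMXAA. Isg15 had 2, 1, 7 and 4 UMIs with vehicle and 11, 5, 9 and 9 with DMXAA.

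Values in Ifnar1-/- mice that did not pass the test lay in either direction. Isg15 in Ifnar1-/- ENs had 0, 0, 3 and 2 UMIs with vehicle and 10, 3, 4 and 7 with DMXAA, and in CPM the lowest DMXAA library (0.121) was just above the highest vehicle library (0.102). The ratio of counts was 4.94 (exact interval 1.85 to 16.6) and the log2 fold change 2.16 ± 1.33 (adjusted p = 0.778) by edgeR, against 2.37 in WT, a difference of 0.21 ± 2.64 (adjusted p = 0.982). Uba7 in Ifnar1-/- microglia had a log2 fold change of 0.82 ± 0.42 (adjusted p = 0.889), against 0.83 in WT. In CA1 pyramidal neurons Uba7 was below the filter on low counts and not tested, and it had 1, 1, 1 and 2 UMIs with vehicle and 5, 7, 4 and 3 with DMXAA in Ifnar1-/- mice, groups that did not overlap. In Ifnar1-/- dentate neurons the estimates had the opposite sign to WT, with 10 UMIs of Uba7 with vehicle and 4 with DMXAA (−1.30 ± 0.93, adjusted p = 0.785) and 25 and 13 of Herc6 (−0.98 ± 0.64, adjusted p = 0.785).

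The ligases remained measurable without the receptor. Herc6 in Ifnar1-/- microglia was at 54.9 ± 6.98 CPM with vehicle and 73.6 ± 25.8 CPM with DMXAA, and in astrocytes at 53.7 ± 9.31 and 48.3 ± 4.76 CPM. Trim25 in Ifnar1-/- microglia was at 14.1 ± 3.58 and 10.2 ± 3.51 CPM. Uba7 in Ifnar1-/- microglia had 2, 4, 9 and 9 UMIs with vehicle and 9, 9, 17 and 12 with DMXAA.

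The difference between the genotypes in the effect of DMXAA was tested in its own right, and edgeR called 0 members in any of these sets. At an unadjusted p under 0.05 there were 3 members in all nuclei, 2 each in microglia, ENs, astrocytes, OPCs and dentate neurons, and 0 in oligodendrocytes. At that limit stood 1343 of 20012 genes in all nuclei, 817 of 8969 in microglia and 1166 of 17685 in ENs. There were 943 of 13357 in astrocytes, 701 of 9574 in OPCs, 980 of 14624 in dentate neurons and 646 of 12098 in oligodendrocytes. Of the members counted, Trim25 and Uba7 in ENs and Herc6 and Uba7 in dentate neurons passed the filter only through the WT DMXAA libraries. The member counts in ENs and dentate neurons are therefore a description. Of all genes 0.075% were called in all nuclei, 0.178% in microglia, 0.0283% in ENs, 0.0731% in OPCs, 0.0205% in dentate neurons and 0.0% in astrocytes and oligodendrocytes. The lowest adjusted p was that of Trim25 over all nuclei, at 0.077 for a difference of 1.56 ± 0.29 on the log2 scale. In microglia the Trim25 difference was 2.02 ± 0.48 (adjusted p = 0.127) and that of Herc6 was 1.41 ± 0.43 (adjusted p = 0.294). For Usp18 the difference was 3.56 ± 1.03 over all nuclei (adjusted p = 0.378). In microglia, with 0 to 1 UMIs per Ifnar1-/- library, the SE of the Usp18 difference, derived from F, was 11.4. The same kind of SE was 0.617 for the WT effect and 2.32 for the Ifnar1-/- effect. DESeq2 called Usp18 and Trim25 over all nuclei, Herc6 in astrocytes, and Herc6 and Uba7 in dentate neurons, and limma-trend called Uba7 and Usp18 in dentate neurons. The shares of all genes called by DESeq2 and limma-trend are not given here, so these calls are a description. The dentate members named also passed the filter only through the WT DMXAA libraries.

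Levels at rest also differed between the genotypes. Over all nuclei Isg15 was at 0.662 ± 0.248 CPM in WT vehicle libraries and 0.0871 ± 0.0554 CPM in Ifnar1-/- vehicle libraries (log2 difference −2.50 ± 0.75, adjusted p = 0.0134). Usp18 was at 0.659 ± 0.203 and 0.0989 ± 0.0314 CPM (−2.37 ± 0.68, adjusted p = 0.0103). No library of one group overlapped the other for either gene, but the share of all genes so separated is not given here. These were 2 of 6 members called lower, but 26.4% of all genes were called lower in that comparison too, and the count is to be read against that share.

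By class, 1 of 6 members was called lower in Ifnar1-/- vehicle ENs (Isg15, 68 UMIs in WT and 5 in Ifnar1-/-) against 26.0% of genes. In astrocytes it was 1 of 3 (Usp18, 26 UMIs and 0) against 16.8%, and in fibroblast-like nuclei 1 of 3 (Usp18, 32.5 ± 7.52 and 3.58 ± 1.5 CPM) against 4.67%. In fibroblast-like nuclei Usp18 reached the filter's minimum level in 4 WT vehicle, 3 WT DMXAA and 0 Ifnar1-/- libraries, where 4 were needed. It passed only with the WT vehicle libraries, where it is high, so this call is a description. No alternative was run in that class. The EN and astrocyte calls were lost without any single Ifnar1-/- vehicle library, and also without WT vehicle replicate 2 or 4 (both classes) or 1 (astrocytes). In microglia 0 of 4 members were called by edgeR (2 at an unadjusted p under 0.05, and 1 each by DESeq2 and limma-trend) against 6.41% of genes by edgeR. The shares of genes that DESeq2 and limma-trend called are not given here. In OPCs (12.9%) 0 of 2 were called by edgeR, DESeq2 or limma-trend (0 before adjustment), and in oligodendrocytes (17.0%) 0 of 2 (1, Herc6, before adjustment). Under 0.05 before adjustment, in either direction, were 2905 of 8969 genes in microglia, 3655 of 9574 in OPCs and 5218 of 12098 in oligodendrocytes. Age and the series of sample names differ between the genotypes in the same way, and their part cannot be told apart.

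Whether the DMXAA effect differed between microglia, ENs and astrocytes of the same WT libraries was tested for each member by exact permutation of the 8 libraries, 18 tests in all. The smallest p that 4 against 4 libraries allow is 0.0286, and 4 tests reached it, with an adjusted p of 0.129, so none passed. The Usp18 effect was 1.74 log2 units higher in ENs than in astrocytes. The Uba7 effect was lower in microglia than in ENs by 1.72 (difference −1.72) and than in astrocytes by 1.32 (difference −1.32), and that of Herc6 was 0.69 higher in microglia than in astrocytes. These sizes used a prior count of 1. With 0.25 the Usp18 difference was 2.84 and the Uba7 difference between microglia and astrocytes −1.99 (adjusted p = 0.103 by the same exact permutation). The Isg15 effect with 0.25 was 2.85 higher in microglia than in ENs (p = 0.0286, adjusted p = 0.103 by exact permutation). With a prior count of 1 this Isg15 difference was 1.69 (p = 0.0857 by exact permutation). The smallest p is reached where the differences between classes do not overlap between vehicle and DMXAA libraries, so this separation adds nothing to it. The share of all genes so separated was not computed.

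The share of nuclei with a UMI was compared after each nucleus was thinned to 1000 UMIs. In WT microglia Usp18 was seen in 0.535 ± 0.304% of nuclei with vehicle and in 9.49 ± 7.13% with DMXAA (20, 7.86, 4.90 and 5.21% by library). Herc6 went from 8.16 ± 0.89% to 20.4 ± 8.01% of WT microglia. In OPCs Usp18 went from 0 of 895 nuclei, which by counting error alone allows up to 0.335% of nuclei with a UMI at this depth, to 5.68 ± 4.85%, and in ENs from 0.00768 ± 0.0154% to 0.322 ± 0.335%. The exact permutation p was 0.0286 for each of these Usp18 shares and for Herc6 in microglia, and the adjusted p over 36 tests was 0.0686, so no share passed. Unthinned, the smallest adjusted p by the same exact permutation was 0.0541.

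Free RNA can place UMIs in nuclei that do not make them. The 12 microglial markers give the size of the part that comes from microglia, not of RNA from other classes. Their summed level in WT DMXAA libraries was 0.936% of the microglial level in ENs, 1.22% in astrocytes and 1.06% in OPCs, with median depths of 1951.5 UMIs per nucleus in microglia and 8070.0 in ENs. Usp18 stood at 2.53% of its microglial level in ENs, 35.8% in astrocytes, 54.1% in OPCs and 0.417% in inhibitory neurons. Uba7 in ENs stood at 4.87%. Trim25 in ENs stood at 1.3% of its microglial level, close to the 0.936% of the markers. In inhibitory neurons it stood at 0.336%, where the markers stood at 0.931%. The part of free RNA in the EN result of Trim25 was not tested.

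The receptor side of the pathway was read from 14 genes of interferon receptor signaling and feedback, chosen for their roles. In WT microglia 3 of 11 tested rose with DMXAA, among them Stat2 (2.57 ± 0.34, adjusted p = 0.000319), the adaptor that helps USP18 reach the receptor, and Irf9 (1.27 ± 0.29, adjusted p = 0.0315). The genes for the receptor chains did not pass, with 0.20 ± 0.27 for Ifnar1 (adjusted p = 0.888) and −0.21 ± 0.16 for Ifnar2 (adjusted p = 0.758). The median of the list was 0.18 against 0.04 for all genes tested, of which 1.27% were called higher. Of 23 tested relatives in ubiquitin and ubiquitin-like pathways 2 rose, the ligase Rnf213 (2.63 ± 0.25, adjusted p = 1.25e-05) and the protease Usp25 (0.79 ± 0.20, adjusted p = 0.0488), with a median of 0.11. Of 57 tested interferon-stimulated genes 46 rose, with a median of 2.08. The lists were chosen with earlier results of these data known, so the counts are a description.

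Over 80 values (16 libraries in microglia, ENs, astrocytes, OPCs and oligodendrocytes) the genes most like each member were listed by Pearson r of log2 CPM, among 19433 genes. The values share libraries and class composition, and r is given as a description. For Usp18 they included Oasl2 (r = 0.935) and Irf9 (0.891), and for Isg15 they were Oasl2 (0.79), Stat2 (0.769) and Ifi27l2a (0.752). For Herc6 they were Rnf213 (0.913), Eif2ak2 (0.895) and Parp12 (0.886), and for Trim25 Rnf213 (0.90), Cbfb (0.888) and Npepl1 (0.884). Uba7 was most like Lgals9 (0.907), Gm50035 (0.906) and Fcgr1 (0.903), and Ube2l6 most like Dhx58os (0.663), Gm4951 (0.638) and Samd9l (0.636). Among the members themselves r was 0.80 between Herc6 and Trim25, 0.736 between Isg15 and Usp18 and 0.284 between Isg15 and Trim25.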

How the data were processed

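The authors sorted nuclei by DAPI, made 10x 3′ v3 libraries and aligned the reads to mm10, counting pre-mRNA; their notes name Cell Ranger 3.1.0 and Seurat 3.0, while the headers of the files name a later Cell Ranger release. The deposited values are raw UMI counts per gene and barcode, neither normalized nor filtered for quality. Barcodes with 200 to 4000 genes and at most 5% mitochondrial UMIs were kept, 9327 predicted doublets (7.89%) were removed, and nuclei were clustered (Leiden, resolution 0.5) and named from marker genes. UMIs were summed per library and class, and genes were tested with edgeR 4.0.16 (TMM, filterByExpr, quasi-likelihood, Benjamini-Hochberg over all genes of a class and contrast) in a fit of all 16 libraries. Calls required an adjusted p below 0.05 together with a log2 change beyond 0.1 in either direction. Differences between classes and shares of nuclei were tested by two-sided exact permutation over libraries. The study tested nuclei with MAST, which was not repeated because nuclei are not replicates. On simulated data, 48% of microglial genes raised 2-fold and 96% of those raised 4-fold in WT DMXAA were recovered, with 100 genes of each among 8969. For the difference between genotypes in microglia the same changes were recovered for 12% and 71%. The alternatives were DESeq2 1.42.0, limma-trend 3.58.1, other size factors, no filter on low counts, each library left out, only the libraries of 1 genotype, doublets kept, no upper limit on genes and another clustering resolution. Usp18 has no promoter entry, and Ube2l6 shares reverse-strand sequence with Gm17167. The named genes were all members, the called genes of the receptor and ubiquitin lists in microglia, Ifnar1, Ifnar2 and Stat2, and the 3 genes most like each member, of which 1 gene is not reported here. The members and lists were chosen with earlier results of these data known.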

Additional observations from a re-analysis of the deposited data

Results flagged for a closer look

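In 16 of 121 groups of 4 libraries, 1 library lay further from the other 3 than Dixon's 95% critical value for 4 samples allows. The groups share libraries and some rest on few UMIs, so no rate expected by chance is given. WT DMXAA replicate 1 was that library in 10 of these 16 groups and was the highest each time. For Usp18 it had 252 CPM in microglia (the others 52.8 to 85.8), 108 CPM in astrocytes (12.6 to 24.0), 23.9 CPM in oligodendrocytes (1.27 to 2.91) and 11.1 CPM in dentate granule neurons (1.21 to 2.38). Isg15 in dentate neurons was at 13.2 CPM (0.402 to 2.58). Herc6 was at 22.5 CPM in ENs (5.22 to 7.69) and 6.98 CPM in dentate neurons (1.20 to 2.18). Trim25 was at 90.2 CPM in microglia (48.5 to 50.5) and 12.9 CPM in oligodendrocytes (6.1 to 6.79), and Ube2l6 was at 2.04 CPM in astrocytes (0.336 to 0.462). The Ube2l6 values rest on 7 UMIs over the 4 libraries, 3 of them outside replicate 1.

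The other 6 cases fell in other groups. In WT vehicle libraries Ube2l6 was at 1.42 CPM in microglia of replicate 4 (4.70 to 4.92 in the others), at 1.64 CPM in astrocytes of replicate 2 (0.38 to 0.59) and at 1.08 CPM in dentate neurons of replicate 1 (0.169 to 0.251). These rest on 10, 8 and 14 UMIs in turn over the 4 WT vehicle libraries. WT vehicle replicate 1 also had 28.5 CPM of Herc6 in OPCs (18.1 to 19.8) and 4.69 CPM of Trim25 in oligodendrocytes (2.44 to 2.73). Uba7 in ENs of Ifnar1-/- DMXAA replicate 4 was at 0.209 CPM (0.306 to 0.323).

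Signal was also present outside the named classes. In nuclei of no named class, which entered the sums over all nuclei only, the WT DMXAA mean was 6.04 CPM for Isg15 and 3.92 CPM for Usp18, against at most 1.77 and 0.886 CPM in any WT vehicle library. In barcodes over the gene limit or called doublets, which entered only the alternatives that kept them, the WT DMXAA mean was 4.02 CPM for Isg15 (WT vehicle libraries 0.40 to 0.632), 4.10 CPM for Usp18 (0.144 to 0.427), 1.87 CPM for Uba7 (0.454 to 0.721), 0.982 CPM for Ube2l6 (0.374 to 0.612) and 2.67 CPM for Trim25 (0.76 to 1.20).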

How the results depend on the processing

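Of 628 fitted changes of members in WT under the alternatives, 621 kept their sign, 47 lost the call and 21 gained one. The cause of each change was not tested, apart from the smaller number of libraries or the larger number of genes that an alternative itself sets. Counts of members called in this section have no share of all genes under the same alternative beside them and are a description. With only the 8 WT libraries, members called higher with DMXAA numbered 0 in all nuclei, 0 in ENs, 0 in astrocytes and 0 in OPCs, and such a fit cannot give the difference between genotypes. In OPCs 2 members were called by DESeq2, 2 with doublets kept, 2 with RLE size factors, 2 with no upper gene limit and 3 with no filter on low counts, and in upper-layer neurons 1 with no filter. Leaving out 1 library gave 3 to 4 members called in all nuclei, 3 to 4 in microglia, 2 to 4 in ENs, 1 to 4 in astrocytes, 0 to 3 in OPCs, 0 to 1 in oligodendrocytes and 1 to 4 in dentate neurons. The lowest counts came without WT vehicle replicate 2, 3 or 4 in astrocytes and without WT DMXAA replicate 1 or WT vehicle replicate 3 in OPCs. The highest came without WT DMXAA replicate 3 in astrocytes and dentate neurons.

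For the difference between genotypes, DESeq2 called 2 members in all nuclei, 1 in astrocytes and 2 in dentate neurons, limma-trend 2 in dentate neurons, and 1 was called in all nuclei with doublets kept and 1 in OPCs with no filter. Leaving out 1 library gave 0 to 1 in all nuclei, microglia, astrocytes and OPCs. For the vehicle groups of the 2 genotypes, an alternative added after seeing the data, 1 member was called in microglia by DESeq2, 1 by limma-trend, 1 with doublets kept and 1 with no filter, and 0 in ENs at the finer clustering. Leaving out 1 library gave 0 to 2 in microglia and 0 to 1 in ENs, astrocytes and oligodendrocytes. The alternatives in dentate and upper-layer neurons were added after seeing the data too, and none were run in fibroblast-like nuclei.

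The sign turned for Herc6 alone. In ENs (−0.11) it was 0.11 with no upper gene limit, 0.09, 0.06 and 0.02 without WT DMXAA replicates 2, 3 and 4, and 0.03 and 0.19 without WT vehicle replicates 1 and 3, in a range of −0.75 to 0.19. In oligodendrocytes (0.36) it was −0.05 without WT DMXAA replicate 1, in a range of −0.05 to 0.55. No paired analysis was possible because the labels number the libraries without pairing them across groups. Low counts limit Isg15 and Ube2l6 in microglia, astrocytes and OPCs and Uba7 in astrocytes and OPCs, where they did not reach the filter. The ratios and shares given without WT DMXAA replicate 1 were added after seeing the data.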

Other observations

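The same 3 gene lists were read in WT ENs and astrocytes, again as a description. In ENs 3 of 14 tested genes of receptor signaling rose with DMXAA by edgeR, with 1 of 23 ubiquitin relatives and 16 of 45 interferon-stimulated genes, whose medians were 0.19, 0.01 and 1.44 on the log2 scale against 0.01 for all genes tested, of which 0.124% were called higher. In astrocytes 3 of 10, 1 of 24 and 22 of 45 rose, with medians of 0.12, 0.07 and 1.97 against 0.02 for all genes, of which 0.21% were called higher.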
